A study of Mus musculus with 8 samples.

Results

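The 7 T-box genes with a part in heart development, Tbx1, Tbx2, Tbx3, Tbx4, Tbx5, Tbx18 and Tbx20, were followed through 4 genome-wide lists of H3.3-HA peaks. They were named from among the 22367 protein-coding genes of the mouse annotation (GENCODE M1, build mm9), by a rule that used no measured value but with earlier results of these data known. Each gene was given a window that ran from 10 kb upstream of its transcription start site (TSS) to 200 bp past its end, and a flank of 100 kb on either side of that window. A peak was counted for a gene when at least 1 bp of it lay in the window.

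The study asked where the histone variant H3.3 is deposited when its chaperone HIRA is missing, in mouse embryonic stem cells (mESCs) and in the cardiac cultures made from them. MNase-digested native chromatin was pulled down through the HA tag, and the DNA was sequenced. The Hira-null cells (Clone 104, a single clone) and the WT cells (line W9.5) both carried HA-tagged H3.3, so the tag was shared by all groups. Day 15 cultures were grown from hanging drops and were mixed cultures of beating and other cells, and day 0 cells were undifferentiated mESCs. The groups were Hira-null day 15, WT day 15, Hira-null day 0 and WT day 0, with 1 ChIP library and 1 input library each. With 1 ChIP library per group there was no replicate spread, and the differences below are given as values without a test. The read depth behind each list is unknown.

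T-box proteins bind DNA through a shared T-box domain and switch genes on or off during development. In the heart, TBX5 and TBX20 drive the chamber muscle programme, TBX2 and TBX3 hold that programme back in the atrioventricular canal and the conduction system, TBX1 acts in the second heart field and the pharynx, and TBX18 in the sinus horns and the epicardium. TBX4 is best known from the hindlimb and the lung. The genes Tbx2 and Tbx4 are neighbours, and so are Tbx3 and Tbx5. The histone variant H3.3 enters chromatin independently of S phase, and HIRA delivers it to active genes and their regulatory elements.

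The sequences at the centres of 7 of the T-box peaks are shown first, to give the sites and repeats they hold, or the lack of them, before the values. Each is the 300 bases around a peak's midpoint on the plus strand of mm9, in lower case. Capitals mark the GATA site (AGATAA, or TTATCT on the other strand) and the NKX2-5 element (TNAAGTG), and positions are counted from the first base printed. The T-box binding site AGGTGTGA was searched as well. All were searched on both strands, and hits of different kinds were counted separately where they overlapped.

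The peaks of WT day 15 are shown for Tbx2 and Tbx20 because they were the window peaks with the most sites or the one nearest to the Tbx2 TSS.
Tbx2 upstream peak, WT day 15, chr11:85641034-85641333: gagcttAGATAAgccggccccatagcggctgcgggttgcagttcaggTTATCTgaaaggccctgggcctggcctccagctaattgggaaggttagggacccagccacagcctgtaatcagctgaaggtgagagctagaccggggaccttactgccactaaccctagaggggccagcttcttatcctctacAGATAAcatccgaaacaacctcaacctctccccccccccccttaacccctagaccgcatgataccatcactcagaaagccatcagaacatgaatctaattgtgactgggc
Tbx2 promoter peak, WT day 15, chr11:85644395-85644694: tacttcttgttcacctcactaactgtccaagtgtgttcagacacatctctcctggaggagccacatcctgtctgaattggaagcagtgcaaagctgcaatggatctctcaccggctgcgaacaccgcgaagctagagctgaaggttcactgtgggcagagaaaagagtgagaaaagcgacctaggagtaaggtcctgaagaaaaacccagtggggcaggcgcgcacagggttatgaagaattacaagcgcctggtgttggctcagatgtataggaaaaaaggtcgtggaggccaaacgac
Tbx20 upstream peak, WT day 15, chr9:24586841-24587140: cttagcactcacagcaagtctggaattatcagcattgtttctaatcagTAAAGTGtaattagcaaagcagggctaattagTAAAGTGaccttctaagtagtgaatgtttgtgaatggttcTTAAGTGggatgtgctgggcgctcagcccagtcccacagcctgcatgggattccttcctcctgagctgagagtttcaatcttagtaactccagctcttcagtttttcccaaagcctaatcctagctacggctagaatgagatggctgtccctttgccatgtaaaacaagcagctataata
The first sequence held 3 GATA sites, at positions 7, 48 and 191, in the intron of the lincRNA 2610027K06Rik. Of the 27272 WT day 15 peaks, 172 (0.631%) held 3 or more GATA sites, and 25.3% held at least 1. The third sequence held 3 NKX2-5 elements, at positions 49, 81 and 121, between genes upstream of Tbx20. In the same list 48 peaks (0.176%) held 3 or more of these elements, and 18.2% held at least 1. Both peaks were picked for having the most sites, so the shares with 3 or more describe the list and not the T-box peaks. Of the 7 WT day 15 window peaks, 1 held a GATA site and 1 an NKX2-5 element. The promoter peak of Tbx2 held none of the 3 kinds of site in its central 300 bases.

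The only peaks inside a T-box gene window in Hira-null day 15 cells lay in the intron of Tbx5, and both were made largely of short tandem repeats.
Tbx5 first intronic peak, Hira-null day 15, chr5:120314019-120314318: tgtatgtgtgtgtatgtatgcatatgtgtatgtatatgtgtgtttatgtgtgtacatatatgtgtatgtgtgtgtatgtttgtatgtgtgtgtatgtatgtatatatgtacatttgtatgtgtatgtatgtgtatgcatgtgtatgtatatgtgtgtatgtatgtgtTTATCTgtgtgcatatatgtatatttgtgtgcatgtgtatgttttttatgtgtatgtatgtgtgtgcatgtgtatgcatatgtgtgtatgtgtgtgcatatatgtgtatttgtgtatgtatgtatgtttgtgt
Tbx5 second intronic peak, Hira-null day 15, chr5:120321794-120322093: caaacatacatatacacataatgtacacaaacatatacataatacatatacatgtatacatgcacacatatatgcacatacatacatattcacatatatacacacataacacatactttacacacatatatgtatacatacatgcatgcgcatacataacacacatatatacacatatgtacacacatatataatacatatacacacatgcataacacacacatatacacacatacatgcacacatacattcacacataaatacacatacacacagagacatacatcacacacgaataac
The first was built of TG and TATG words and the second of CA and CATA words on the plus strand, and the first held 1 GATA site. The variety of a sequence was measured as the number of different 6-base words among its 295 overlapping words. The first Tbx5 peak had 69 different words and the second 109, against a median of 272 over the Hira-null day 15 list. In that list 561 of 7332 peaks (7.65%) had as few words as the first peak, and 1004 (13.7%) as few as the second. The measure was chosen after these sequences were seen.

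Outside the windows, the T-box peak with the highest score in the WT day 0 list (rank 248 of 22730) lay upstream of Tbx3. The only peak near Tbx18 was found in both day 0 lists.
Tbx3 distal upstream peak, WT day 0, chr5:120029780-120030079: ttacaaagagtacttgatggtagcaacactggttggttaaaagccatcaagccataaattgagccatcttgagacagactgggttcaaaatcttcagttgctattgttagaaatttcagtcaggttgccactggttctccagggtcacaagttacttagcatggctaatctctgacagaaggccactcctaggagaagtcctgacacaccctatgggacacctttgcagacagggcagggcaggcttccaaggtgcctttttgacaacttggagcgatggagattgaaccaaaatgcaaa
Tbx18 upstream peak, WT day 0, chr9:87650483-87650782: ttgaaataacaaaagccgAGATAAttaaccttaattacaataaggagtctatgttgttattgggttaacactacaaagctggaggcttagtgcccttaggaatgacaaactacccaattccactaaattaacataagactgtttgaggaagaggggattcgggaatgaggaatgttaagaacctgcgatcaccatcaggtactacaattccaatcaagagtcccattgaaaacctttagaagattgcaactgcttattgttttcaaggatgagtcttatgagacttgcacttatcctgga
The Tbx3 sequence held none of the 3 kinds of site. The Tbx18 sequence held 1 GATA site at position 19, and at least 1 such site was found in 16.6% of the 22730 WT day 0 peaks.

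The lists differed in length before any gene was considered. They held 7332 peaks in Hira-null day 15 cells, 27272 in WT day 15 cells, 17706 in Hira-null day 0 cells and 22730 in WT day 0 cells. The median peak width was 775 bp in Hira-null day 15 cells, 952 bp in WT day 15 cells, 1514 bp in Hira-null day 0 cells and 1045 bp in WT day 0 cells. The score is 10 times the negative log10 of the peak caller's p-value, so that 50 was the lowest in each list, and it grows with read depth and is not comparable between lists. Chromosome 11, which carries Tbx2 and Tbx4, had 5.09 times as many peaks per Mb as the other autosomes in WT day 15 cells and 2.83 times in WT day 0 cells. The same ratio was 1.18 in Hira-null day 15 cells and 1.02 in Hira-null day 0 cells. Of the markers checked, the pluripotency genes Pou5f1, Nanog, Esrrb and Zfp42 had a window peak in 1 of 4 cases in Hira-null day 15 cells, 1 of 4 in WT day 15 cells, 3 of 4 in Hira-null day 0 cells and 4 of 4 in WT day 0 cells. None of the 6 cardiomyocyte genes Myh6, Myh7, Tnnt2, Actc1, Nppa and Nkx2-5 had a window peak in any list, day 15 included. Of all protein-coding genes, 13.3% had a window peak in Hira-null day 15 cells and 37.1% in WT day 15 cells. At day 0 it was 18.9% in Hira-null cells and 33.6% in WT cells. Sets of 4 and 6 genes are too small to be set apart from these shares.

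Over the 7 T-box genes there were 2 window peaks in Hira-null day 15 cells, 7 in WT day 15 cells, 0 in Hira-null day 0 cells and 4 in WT day 0 cells. The 2 Hira-null day 15 peaks were both at Tbx5. The 7 WT day 15 peaks were 4 at Tbx2, 1 at Tbx4 and 2 at Tbx20. The 4 WT day 0 peaks were 2 at Tbx3 and 2 at Tbx4. Tbx1 and Tbx18 had no window peak in any list. No T-box gene had a window peak in both genotypes on the same day. The share of all genes with both was not counted. It can be at most 13.3% at day 15 and 18.9% at day 0, the shares with a Hira-null window peak. With 7 genes, a count of 0 beside such shares is not read as a result about the T-box genes. When each list was cut to its 7332 highest-scored peaks, 2 window peaks were left in Hira-null day 15 cells and 2 in WT day 15 cells, and 0 in both day 0 lists. Without Tbx2 and Tbx4 on chromosome 11, a count added after seeing the data, there were 2 in Hira-null day 15 cells, 2 in WT day 15 cells, 0 in Hira-null day 0 cells and 2 in WT day 0 cells.

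As a share of genes, 1 of 7 T-box genes had a Hira-null day 15 window peak, against 13.3% of all protein-coding genes. For WT day 15 it was 3 of 7, against 37.1% of all genes. For Hira-null day 0 it was 0 of 7, against 18.9%, and for WT day 0 it was 2 of 7, against 33.6%. In 5 of 7 T-box genes a window peak was found in at least 1 list, against 54.5% of all genes. Since 1 gene of 7 makes 14.3%, the T-box shares were near the background at day 15 and in WT day 0 cells. The 0 of 7 in Hira-null day 0 cells, against 18.9%, is too coarse a count to read as a difference.

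**Figure D1:**
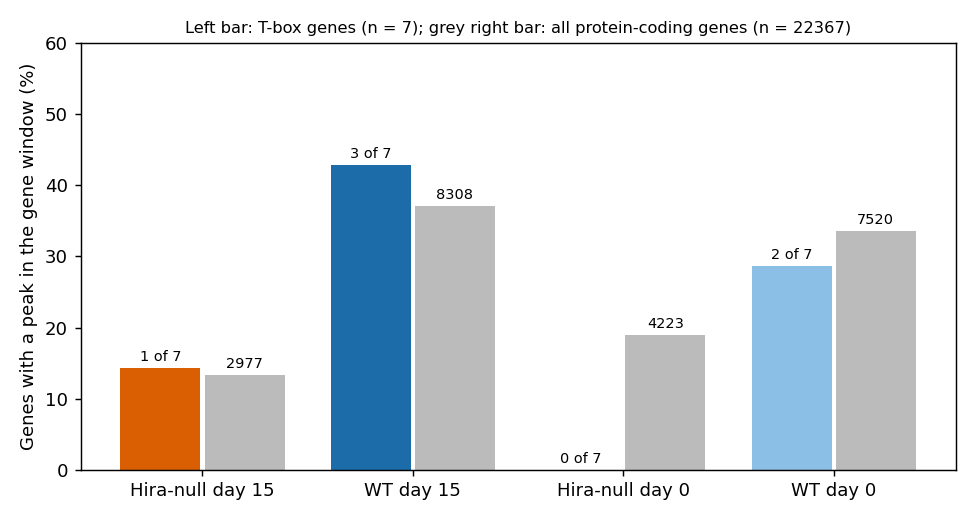
Share of genes (%) whose window held an H3.3-HA peak, by list. The left bar of each pair is the 7 T-box genes, with their number above it, and the grey right bar is all 22367 protein-coding genes. The pairs lie near each other at day 15 (14.3% and 13.3% in Hira-null cells, 42.9% and 37.1% in WT cells). In Hira-null day 0 cells it was 0 of 7 T-box genes, against 18.9% of all genes.

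Following the study's definition, HIRA-dependent peaks were those WT peaks that shared not even 1 bp with a peak of the Hira-null list from that day. All 7 WT day 15 window peaks and all 4 WT day 0 window peaks met it. This placed a HIRA-dependent peak at 3 of 7 T-box genes on day 15, against 35.4% of all genes, and at 2 of 7 on day 0, against 29.5%. Of the whole WT lists, 91.9% of day 15 peaks and 72.7% of day 0 peaks had no Hira-null partner, so a set of WT peaks without partners was the usual state at day 15. In the other direction, both Tbx5 peaks of Hira-null day 15 cells had no WT partner, as had 69.2% of that list. A Hira-null peak without a WT peak was in the window of 1 of 7 T-box genes at day 15, against 9.27% of all genes, and of 0 of 7 at day 0, against 13.5%.

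Peaks within 1 kb of the TSS were few at the T-box genes, as they were over all genes. In WT day 0 cells 1 of 7 T-box genes, Tbx4, had a peak within 1 kb of the TSS, against 8.56% of all genes. None had one in Hira-null day 15 cells (0.921% of all genes), WT day 15 cells (12.6%) or Hira-null day 0 cells (1.28%). The edge of the nearest WT day 15 peak at Tbx2 was 1.08 kb from the TSS, just outside that limit. Only the outermost TSS of each gene was used. A shorter coding transcript of Tbx3 starts at chr5:120130760, within 1 kb of the WT day 0 peak at chr5:120131733-120133105, which these counts leave out.

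**Figure D2:**
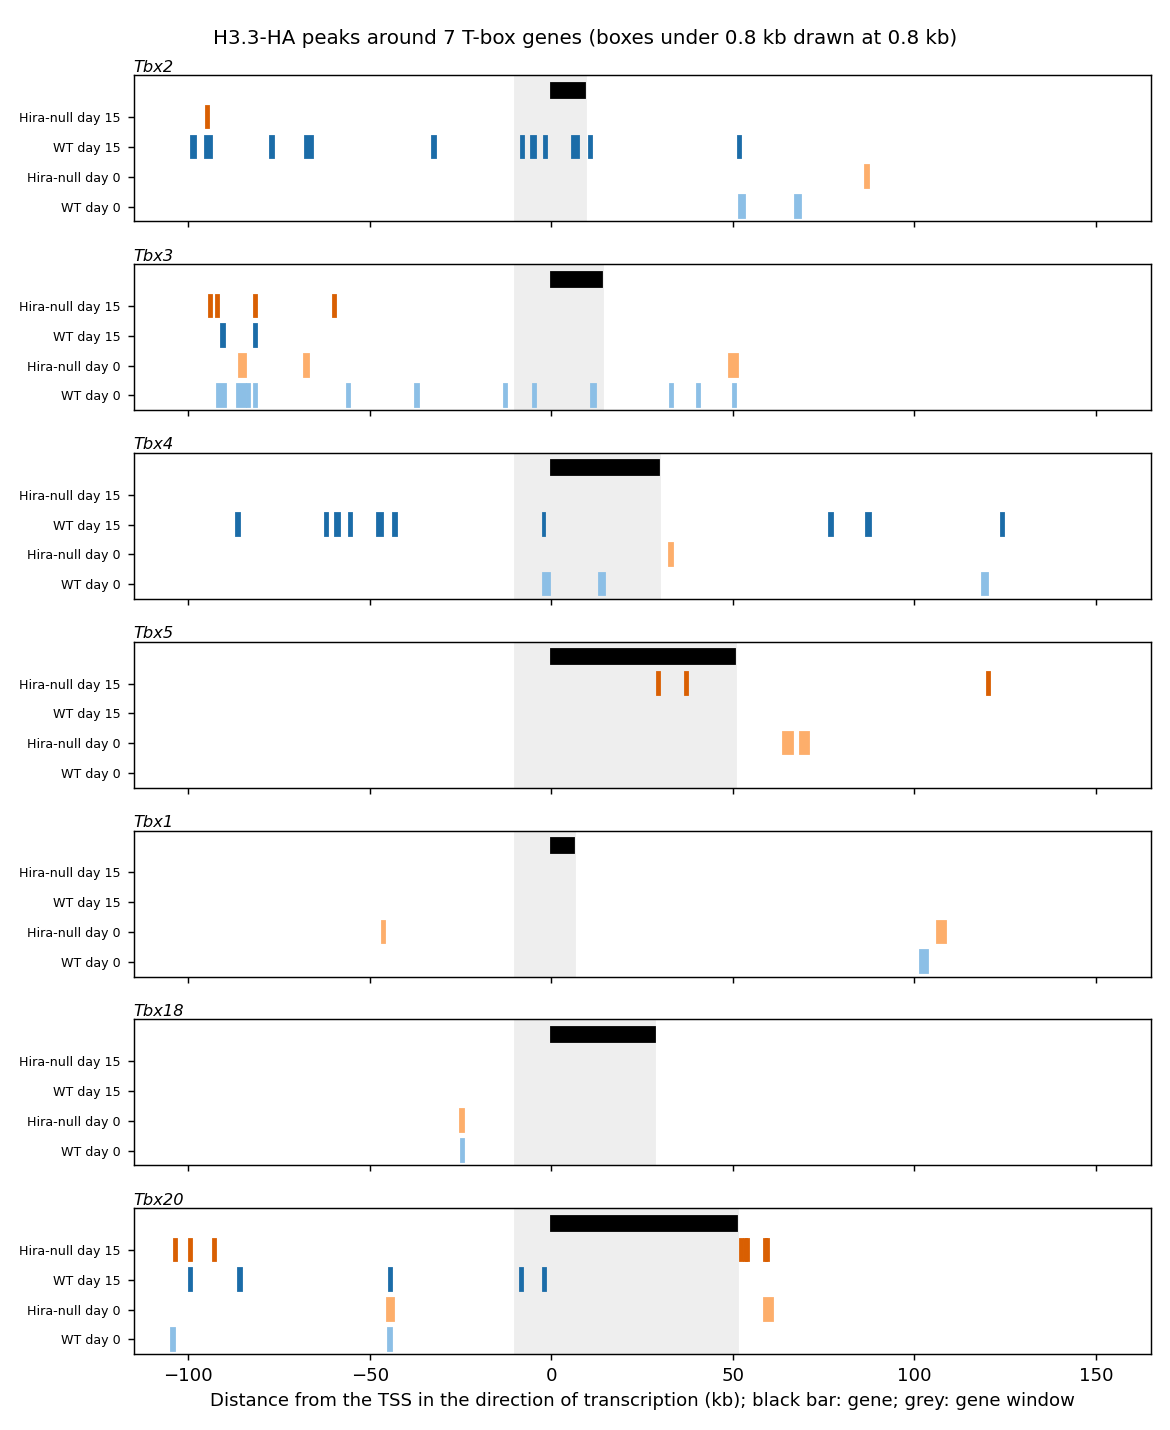
Position of every H3.3-HA peak in the windows and 100 kb flanks of the 7 T-box genes, with distance from the TSS in kb in the direction of transcription on the x axis and 1 row per list. The black bar is the gene, the grey band its window, and boxes are peaks, with peaks shared by neighbouring genes drawn under both. Window boxes appear at Tbx2 and Tbx20 in WT day 15 cells, at Tbx3 in WT day 0 cells, at Tbx4 in both WT lists and at Tbx5 in Hira-null day 15 cells.

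Tbx2, the repressor of chamber genes in the atrioventricular canal (chr11:85646053-85655450, plus strand, 9.4 kb), had 4 window peaks in WT day 15 cells and none in the other 3 lists. The peak at chr11:85640470-85641897, 4.87 kb upstream by its midpoint, was 1428 bp wide with a score of 168 and is the one with 3 GATA sites. The peak at chr11:85651856-85653675, in a Tbx2 intron, was the widest at 1820 bp and had a score of 135. The promoter peak at chr11:85644112-85644977 was 866 bp wide with a score of 119, and the one farthest upstream, at chr11:85637618-85638445, was 828 bp wide with a score of 59.2. The first 3 stood above the list's median score of 86.7 and the last below it. The 3 upstream peaks lay in an intron of the lincRNA 2610027K06Rik, and the farthest of them also in an intron of Bcas3, a gene known for its part in cell movement.

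Tbx2 was 1 of 111 genes (0.496% of 22367) with exactly 4 window peaks in WT day 15 cells and 0 in the other lists, and 37 of the 111 lay on chromosome 11. On that chromosome 69.1% of 1653 genes had a WT day 15 window peak, and 30.9% had at least 4. The part of the dense chromosome 11 signal in the Tbx2 and Tbx4 counts was not tested. Chromosome 8 had 2.56 times as many peaks per Mb as the other autosomes in WT day 15 cells. Away from chromosomes 8 and 11, 1 of 5 T-box genes (Tbx20) had a WT day 15 window peak, against 32.9% of 19632 genes.

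In the flanks of Tbx2 there was 1 Hira-null day 15 peak, 7 WT day 15 peaks, 1 Hira-null day 0 peak and 2 WT day 0 peaks. The Hira-null day 15 peak (chr11:85550893-85551953, score 78.0) lay in an intron of Bcas3 about 94.6 kb upstream. It overlapped a WT day 15 peak (chr11:85550807-85552520, score 308) that ranked 1153 of 27272 by score. That was the highest score of any WT day 15 peak at a T-box gene and the only peak of the Tbx2 and Tbx4 locus that both genotypes shared.

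Tbx3, the repressor of the conduction system that is also made in mESCs (chr5:120120678-120134733, plus strand, 14.1 kb), had 2 window peaks in WT day 0 cells and none in the other lists. They were at chr5:120115650-120116298, 4.70 kb upstream in an intron of the transcript Gm2301 (649 bp, score 81.8), and at chr5:120131733-120133105 in a Tbx3 intron (1373 bp, score 52.3). The second was near the bottom of its list, at rank 21440 of 22730.

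The flanks of Tbx3 held 4 peaks in Hira-null day 15 cells, 2 in WT day 15 cells, 3 in Hira-null day 0 cells and 10 in WT day 0 cells. Of these 19 peaks, 10 lay between 81.4 and 93.9 kb upstream, in a stretch with no annotated gene. The WT day 0 peak at chr5:120028606-120031253 was 2648 bp wide with a score of 407, rank 248 of 22730. It was overlapped by a Hira-null day 15 peak of 487 bp with a score of 56.6 and by a WT day 15 peak of 1173 bp with a score of 89.9, which did not touch each other. A region 81.5 kb upstream was also found in 3 lists, with scores of 52.0 in Hira-null day 15 cells, 76.8 in WT day 15 cells and 124 in WT day 0 cells. Another region, 85 kb upstream, had a Hira-null day 0 peak with a score of 103 and a WT day 0 peak with a score of 194. Downstream, a region about 50 kb past the TSS had a Hira-null day 0 peak with a score of 235 and a WT day 0 peak with a score of 51.4.

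Tbx4, the hindlimb and lung gene next to Tbx2 (chr11:85699924-85729599, plus strand, 29.7 kb), had 1 window peak in WT day 15 cells and 2 in WT day 0 cells. No Hira-null peak lay in its window on either day. The WT day 15 peak at chr11:85697573-85698299 (727 bp, score 63.3) overlapped the WT day 0 peak at chr11:85697641-85699473 (1833 bp, score 74.0), whose edge was 451 bp from the TSS. Of the T-box window peaks, 1 of 7 in WT day 15 cells and 1 of 4 in WT day 0 cells overlapped a WT peak of the other day. Over windows and flanks, 1 of 52 regions (1.92%) lay in both WT lists and no Hira-null list, against 7.52% of 58310 regions over the genome. These counts rest on 1 region and are not read as a difference. The share of each whole list that overlapped the other day was not counted. The other WT day 0 peak, at chr11:85713190-85714744, lay in a Tbx4 intron (1555 bp, score 93.6). Among genes on chromosome 11, 50.3% had a WT day 0 window peak, against 31.6% of genes off chromosomes 8 and 11. The flanks of Tbx4 held 0 Hira-null day 15 peaks, 9 WT day 15 peaks, 1 Hira-null day 0 peak and 1 WT day 0 peak, and 4 of the 9 were the window peaks of Tbx2.

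Tbx5, the activator whose loss of function causes Holt-Oram syndrome in humans (chr5:120284672-120335227, plus strand, 50.6 kb), was the one T-box gene with peaks in Hira-null cells and none in WT cells. Both WT lists were empty over its window and its flanks. The first Hira-null day 15 peak, chr5:120313696-120314642, was 947 bp wide with a score of 207, rank 1405 of 7332, and lay 29.5 kb past the TSS. The second, chr5:120321509-120322378, was 870 bp wide with a score of 82.9, rank 4159, and lay 37.3 kb past the TSS. Their GC contents were 37.3% and 33.6%, both under the list's median of 42.1%. Downstream, another Hira-null day 15 peak (chr5:120404756-120405571, score 128) was also made of few words, with 103 different ones. In Hira-null day 0 cells 2 other peaks lay 14666 and 19205 bp past the gene end. They were 2866 and 2411 bp wide with scores of 245 and 353, and their positions held no peak in the other 3 lists.

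Peaks of few words were found at the T-box genes in 1 list only. Of the T-box peaks, 4 of 16 in Hira-null day 15 cells had at most 150 different words, against 0 of 21 in WT day 15 cells, 0 of 11 in Hira-null day 0 cells and 0 of 19 in WT day 0 cells. Over the whole lists such peaks made up 18.8% in Hira-null day 15 cells, 0.935% in WT day 15 cells, 4.63% in Hira-null day 0 cells and 1.01% in WT day 0 cells. The share at the T-box genes was near that of its list. The 4 were both Tbx5 window peaks, the downstream Tbx5 peak and a peak 93.9 kb upstream of Tbx3 (score 124). The part of the repeats in these peak calls was not tested.

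**Figure D3:**
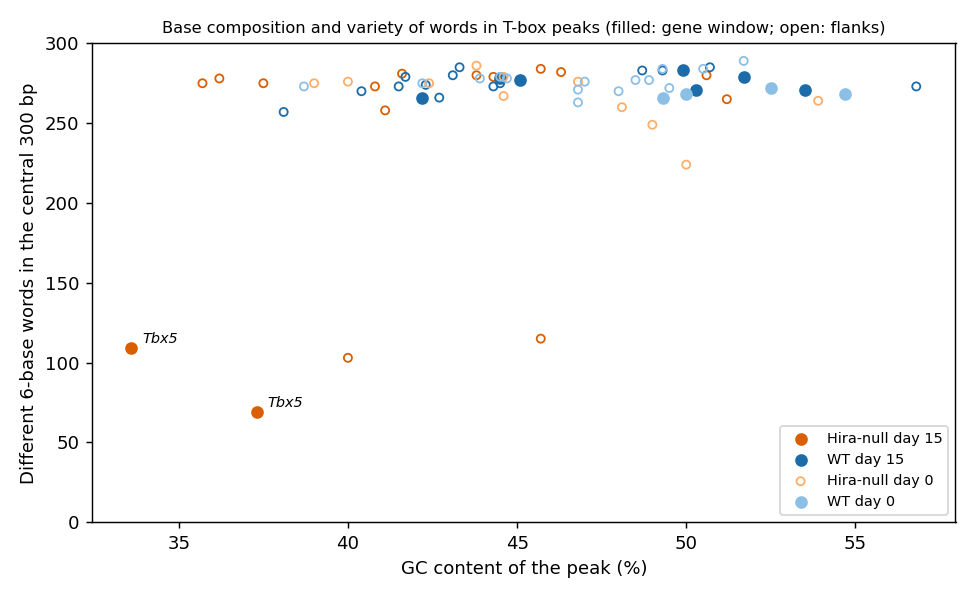
GC content of each T-box peak in percent (x axis) and number of different 6-base words in its central 300 bp (y axis), with filled points for window peaks, open points for flank peaks and colours for the 4 lists. All but 4 points lie above 200 words, and the 4 low points, the labelled Tbx5 window peaks with 69 and 109 words among them, are from Hira-null day 15 cells.

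Tbx20, the chamber muscle factor that works with NKX2-5 and GATA4 (chr9:24527648-24578746, minus strand, 51.1 kb), had 2 window peaks in WT day 15 cells and none in the other lists. The nearer, chr9:24580159-24580964, lay 1.82 kb upstream (806 bp, score 103). The farther, chr9:24586563-24587419, lay 8.24 kb upstream (857 bp, score 57.4) and is the one with 3 NKX2-5 elements. It was a weak peak, at rank 23521 of 27272.

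The flanks of Tbx20 held 8 peaks in Hira-null day 15 cells, 3 in WT day 15 cells, 2 in Hira-null day 0 cells and 2 in WT day 0 cells. Of the 8 Hira-null day 15 peaks, 5 lay within 10 kb past the gene end, between 1281 and 8566 bp from it by their midpoints, with widths of 471 to 683 bp and scores of 51.2 to 78.1. All 5 were below the list's median score of 91.7. Some lay close together, and with peaks less than 1 kb apart merged they formed 2 regions. The nearest coding TSS to all 5 was that of Dpy19l2. Of all genes, 21 of 22367 (0.0939%) had 5 or more separate peaks of this list in the 10 kb past their end, a count made after the cluster was seen. The 2 farthest from the gene overlapped 1 Hira-null day 0 peak (chr9:24517658-24520205, 2548 bp, score 215), and no WT peak lay there on either day. Upstream of Tbx20, a region about 44 kb from the TSS was found in 3 lists. Its peak had a score of 53.1 in WT day 15 cells, 377 in Hira-null day 0 cells and 214 in WT day 0 cells.

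Tbx1, the gene of the second heart field (chr16:18581806-18588113, minus strand), had no window peak. In humans TBX1 and HIRA lie in the chromosomal interval that is lost in DiGeorge syndrome. The flanks of Tbx1 held 2 Hira-null day 0 peaks and 1 WT day 0 peak, with scores of 113 and 59.4 in Hira-null cells and 161 in WT cells. The first Hira-null peak overlapped a further WT day 0 peak that lay outside the flank. The nearest coding TSS to each flank peak was that of Gnb1l or Sept5, not of Tbx1. Tbx18, a marker of the sinus horns and the epicardium, had no window peak either (chr9:87597635-87626095, minus strand). A single region 24.5 kb upstream held a Hira-null day 0 peak (chr9:87650100-87651153, 1054 bp, score 119) and an overlapping WT day 0 peak (chr9:87650220-87651046, 827 bp, score 123). Neither Tbx1 nor Tbx18 had a peak at day 15 in window or flanks in either genotype.

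Counted once where neighbouring genes share them, the flanks held 14 peaks in Hira-null day 15 cells, 14 in WT day 15 cells, 11 in Hira-null day 0 cells and 15 in WT day 0 cells. The equal day 15 counts depended on the setting. They were 15 in Hira-null and 31 in WT cells with flanks of 200 kb, and 6 in Hira-null and 4 in WT cells with flanks of 50 kb. They were 2 in Hira-null and 4 in WT cells at a score of at least 100, and 14 in Hira-null and 2 in WT cells in lists of equal length. A flank peak was found at 4 of 7 T-box genes in Hira-null day 15 cells, against 46.2% of all genes, and at 4 of 7 in WT day 15 cells, against 68.5%. In Hira-null day 0 cells it was 7 of 7, against 68.5% of all genes, and in WT day 0 cells 6 of 7, against 75.9%. In these gene counts a peak shared by neighbouring genes counts for each. The only Hira-null day 0 flank peak of Tbx2 was also the only one of Tbx4 (score 56.1, rank 16441 of 17706). With 7 genes these counts are too coarse to read as a difference. Of the flank peaks, 11 of 14 in Hira-null day 15 cells had no partner in the other genotype, against 69.2% of that list, and 11 of 14 in WT day 15 cells, against 91.9%. At day 0 it was 6 of 11 in Hira-null cells, against 67.2% of the list, and 11 of 15 in WT cells, against 72.7%.

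The density of peaks was then set against that of the same chromosome. Over the joined locus of Tbx2 and Tbx4 (294 kb) there were 0.340 peaks per 100 kb in Hira-null day 15 cells and 4.77 in WT day 15 cells, against chromosome 11 means of 0.342 and 4.67. The day 15 density there was thus close to that of the chromosome in both genotypes. At day 0 that locus was under its chromosome, with 0.340 in Hira-null cells and 1.02 in WT cells, against means of 0.704 and 2.37. Over the locus of Tbx3 and Tbx5 (425 kb) there were 1.65 in Hira-null day 15 cells and 0.471 in WT day 15 cells, against chromosome 5 means of 0.321 and 0.759. At day 0 the same locus had 1.18 in Hira-null cells and 2.83 in WT cells, against means of 0.803 and 0.798. Over the Tbx20 locus (261 kb) there were 3.06 in Hira-null day 15 cells and 1.91 in WT day 15 cells, against chromosome 9 means of 0.338 and 0.953. The Tbx1 locus (217 kb) had 0 in both day 15 lists, against chromosome 16 means of 0.259 in Hira-null cells and 0.739 in WT cells, and at day 0 it had 0.924 in Hira-null cells and 0.462 in WT cells, against means of 0.701 and 0.746. The Tbx18 locus (239 kb) had 0 in both day 15 lists and 0.419 in both day 0 lists, under the chromosome 9 mean in each. At day 0 the Tbx20 locus had 0.765 in both genotypes, against means of 0.713 in Hira-null cells and 0.906 in WT cells. The densities above 0 rest on 1 to 14 peaks each, and how often stretches of this size reach them was not tested.

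**Figure D4:**
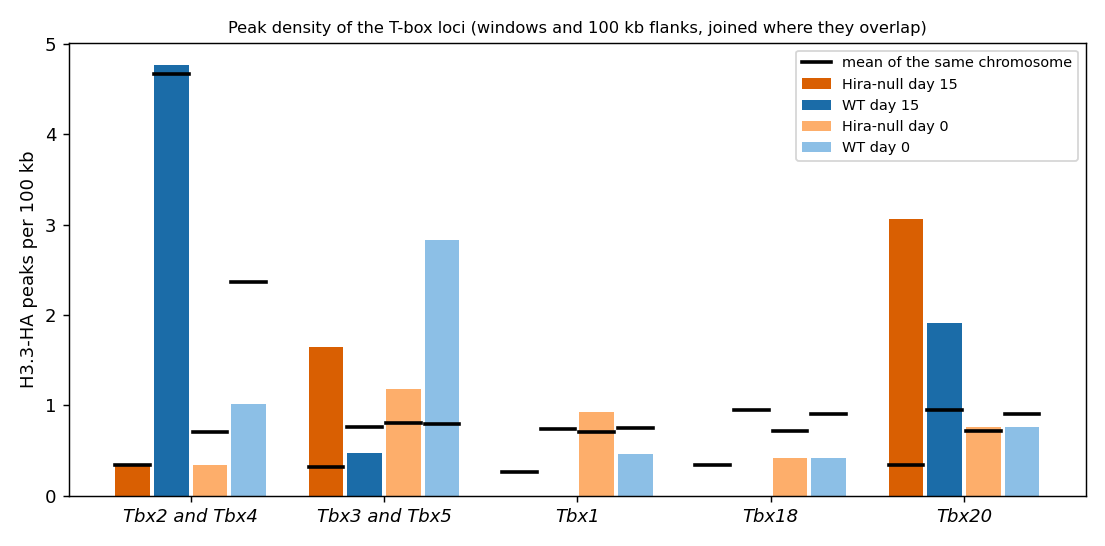
H3.3-HA peaks per 100 kb (y axis) over the 5 T-box loci, with 1 bar per list and a black line for the mean of the same chromosome and list. At Tbx2 and Tbx4 the day 15 bars reach the chromosome means (4.77 against 4.67 in WT cells), and at Tbx20 the Hira-null day 15 bar stands at 3.06 against a mean of 0.338.

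Merged over the 4 lists, the T-box windows and flanks held 52 separate regions. Of these, 40 (76.9%) were found in 1 list, 9 (17.3%) in 2 and 3 (5.77%) in 3, and none was found in all 4. Over the genome, 78.1% of 58310 regions were found in 1 list, 19.2% in 2, 2.28% in 3 and 0.508% in 4. The spread over lists was close to that of the genome. Regions found in Hira-null day 15 cells alone numbered 9 (17.3%), against 6.22% of all regions, and those found in WT day 15 cells alone numbered 15 (28.8%), against 34.0%.

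The scores of the T-box peaks were spread about the medians of their lists. In the windows, 1 of 2 Hira-null day 15 peaks, 4 of 7 WT day 15 peaks and 2 of 4 WT day 0 peaks were above the list's median. In the flanks it was 2 of 14 in Hira-null day 15 cells, 6 of 14 in WT day 15 cells, 5 of 11 in Hira-null day 0 cells and 8 of 15 in WT day 0 cells. No WT day 0 window peak reached a score of 100. The flank peaks of Hira-null day 15 cells were mostly weak, with a median of 59.9 against 91.7 for the list.

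**Figure D5:**
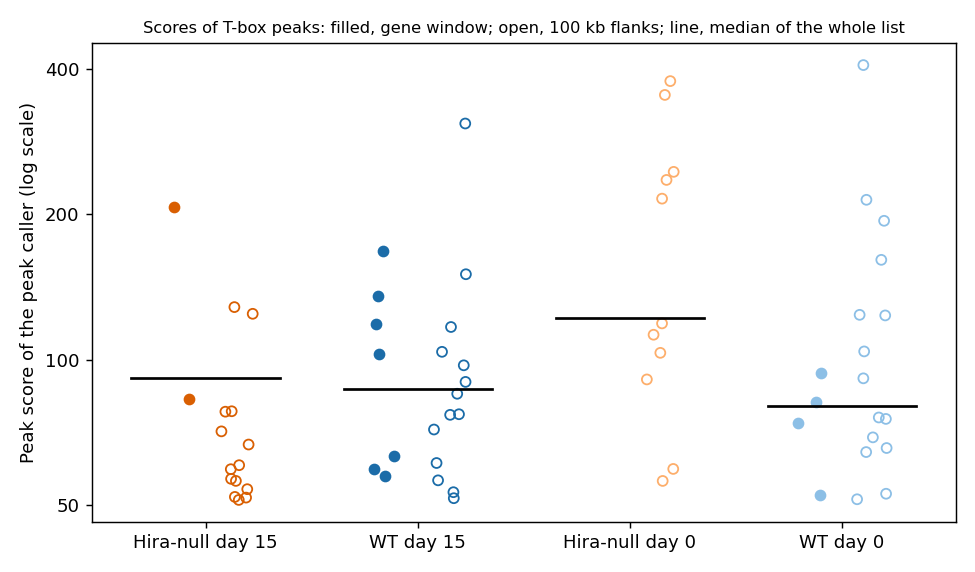
Score of every T-box peak on a log axis, by list, with filled points for gene windows, open points for 100 kb flanks and a line at the median of the whole list. The first Tbx5 peak stands at 207 in Hira-null day 15 cells, and the Tbx3 upstream peak of WT day 0 cells at 407. Scores are not comparable between lists.

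Among the 13 window peaks, the T-box binding site was found in 0, the NKX2-5 element in 1 and the GATA site in 2. Among all 67 T-box peaks the counts were 2, 5 and 16. Over the whole lists the T-box binding site was found in 1.12% of Hira-null day 15 peaks, 1.16% of WT day 15 peaks, 1.22% of Hira-null day 0 peaks and 1.4% of WT day 0 peaks. The NKX2-5 element was in 14.4% of Hira-null day 15, 18.2% of WT day 15, 13.4% of Hira-null day 0 and 18.6% of WT day 0 peaks. The GATA site was in 26.6% of Hira-null day 15, 25.3% of WT day 15, 17.9% of Hira-null day 0 and 16.6% of WT day 0 peaks. Most WT window peaks lay above the median GC content of their whole list. In WT day 15 cells 6 of 7 exceeded the list's median of 42.6%, with a median of 49.9%. In WT day 0 cells 4 of 4 exceeded 45.0%, with a median of 51.2%. These peaks came from few genes. Of the 7 at day 15, 4 were at Tbx2 and 1 at Tbx4, and the 4 at day 0 were at Tbx3 and Tbx4. The GC content of window peaks at other genes was not compared.

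Other genes of the T-box pathway were followed in the same windows. Their counts stand beside 13.3% of all genes with a window peak in Hira-null day 15 cells, 37.1% in WT day 15 cells, 18.9% in Hira-null day 0 cells and 33.6% in WT day 0 cells. Of 10 other T-box family genes, 0 had a window peak in Hira-null day 15 cells, 2 in WT day 15 cells, 0 in Hira-null day 0 cells and 2 in WT day 0 cells. Most of these peaks were at Mga, a T-box protein that pairs with MAX, with 7 in WT day 15 cells and 5 in WT day 0 cells. Of 12 partner factors of the cardiac programme, 1 had a Hira-null day 15 peak, 5 a WT day 15 peak, 1 a Hira-null day 0 peak and 0 a WT day 0 peak. Gata4, the zinc finger partner of TBX5 and NKX2-5, had 6 peaks in Hira-null day 15 cells, 7 in WT day 15 cells, 1 in Hira-null day 0 cells and 0 in WT day 0 cells. Gata6, another zinc finger factor of the heart, had 4 peaks in WT day 15 cells and none in the other lists. Tbx2 and Tbx20, like Gata6, had window peaks in WT day 15 cells alone. Tbx5 had them in Hira-null day 15 cells alone. Tbx3 had window peaks in WT day 0 cells alone, and Tbx4 had them in both WT lists. Gata4 and Gata6 were named for their peak counts. The share of all genes with each pattern was not counted, so no likeness between genes is read from them.

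Of 17 regulators and signals upstream of the T-box genes, 3 had a window peak in Hira-null day 15 cells, 8 in WT day 15 cells, 4 in Hira-null day 0 cells and 8 in WT day 0 cells. The shares of all genes were 13.3% in Hira-null day 15, 37.1% in WT day 15, 18.9% in Hira-null day 0 and 33.6% in WT day 0 cells. The BMP receptor gene Bmpr1a, which acts upstream of Tbx2, had 0 peaks in both Hira-null lists, 7 in WT day 15 cells and 4 in WT day 0 cells. Smad1, which carries the BMP signal into the nucleus, had 6 peaks in WT day 15 cells and none in the others. The adaptor gene Crkl had 1 peak in Hira-null day 15 cells, 4 in WT day 15 cells, 2 in Hira-null day 0 cells and 2 in WT day 0 cells. Tgfb2 had 1 peak in each day 15 list and none at day 0. Aldh1a2, which makes retinoic acid, had 1 peak in Hira-null day 15 cells, 0 in WT day 15 cells, 2 in Hira-null day 0 cells and 2 in WT day 0 cells. Smad1 and Tbx2 both had peaks in WT day 15 cells alone, and Smad1 lies on chromosome 8. The share of all genes with that pattern was not counted.

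Of 16 targets of T-box factors, 4 had a window peak in Hira-null day 15 cells, 8 in WT day 15 cells, 6 in Hira-null day 0 cells and 8 in WT day 0 cells, to be read against the same 13.3%, 37.1%, 18.9% and 33.6% of all genes in that order. Cdkn1a, the cell cycle inhibitor that TBX2 and TBX3 repress, had 4 peaks in Hira-null day 15 cells, 2 in WT day 15 cells, 3 in Hira-null day 0 cells and 1 in WT day 0 cells. Fgf8, a target of TBX1, had 2 peaks in Hira-null day 15 cells, 1 in WT day 15 cells, 0 in Hira-null day 0 cells and 1 in WT day 0 cells. Fgf10 had 1 peak in Hira-null day 15 cells and 1 in WT day 0 cells. Ryr2, the calcium release channel of heart muscle and a gene of 554 kb, had 4 or 5 peaks in every list. Atp2a2, a target of TBX5 that encodes the SERCA calcium pump, had 0 peaks in both Hira-null lists, 5 in WT day 15 cells and 6 in WT day 0 cells. The members of this list thus differed in which genotype and day held their peaks. The median number of window peaks was 0 in each list both for the 7 T-box genes and for all protein-coding genes.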

How the data were processed

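H3.3-HA ChIP-seq peaks were analysed for 4 groups (Hira-null and WT, day 15 and day 0), with 1 ChIP library each; the 4 input libraries had no file used here. According to the methods of the study, the authors aligned paired-end reads to mm9 with Bowtie, removed duplicates with Samtools and called peaks with MACS at its default threshold; the submitters' processing notes give MACS 1.4.2. The deposited score of each peak is 10 times the negative log10 of the p-value of MACS. Which input served as control for each list is not given in the sources used here. Start positions were raised by 1 to be 1-based.

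Genes were taken from GENCODE mouse M1 and sequences from the mm9 genome. Windows, overlaps and counts were computed with Python 3.11.15, numpy 2.4.6 and pandas 2.3.3, and overlaps were checked with bedtools 2.31.1. The counting code was tested on simulated peaks. Figures were drawn with matplotlib 3.10.9. Base words and motifs were counted in the 300 bp around each midpoint.

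The members and the gene lists were chosen with earlier results of these data known. All 7 T-box genes were named in every list. Of the other lists, genes with at least 3 window peaks in any list and genes with a Hira-null day 15 window peak were named, and all markers checked were named, except that 1 gene that met this rule is not reported here. No test was run, since 1 library per group gives no replicate error. Alternatives were a score of at least 100, lists of equal length, other windows and flanks, merged peaks and other overlap rules.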

Additional observations from a re-analysis of the deposited data

Results flagged for a closer look

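The number of flank peaks moved in opposite directions with differentiation at 2 genes, which is what drew attention to them. At Tbx3, day 15 minus day 0 was 1 in Hira-null cells and -8 in WT cells, a difference of 9 peaks. At Tbx4 it was -1 in Hira-null cells and 8 in WT cells, a difference of -9 peaks, and 4 of the 9 WT day 15 flank peaks of Tbx4 were the window peaks of Tbx2. In Hira-null cells each change was of 1 peak. Chromosome 11 as a whole, which carries Tbx4, moved in the same directions. Its mean per 100 kb was 0.704 at day 0 and 0.342 at day 15 in Hira-null cells, and 2.37 and 4.67 in WT cells. On chromosome 5, which carries Tbx3, the means were 0.803 and 0.321 in Hira-null cells, and 0.798 and 0.759 in WT cells. With 1 library per group neither difference was tested, and the lists differ in length.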

How the results depend on the processing

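Of the window counts, 23 alternative values stayed within 1.5 times the value given and 17 moved further. The 23 include the Hira-null day 0 values, which were 0 in every setting. The tally also holds the HIRA-dependent counts, which equalled the WT counts in each setting given for both, so its values are not separate results. Every WT count moved past 1.5 times in lists of equal length and in gene bodies alone. In lists cut to 7332 peaks the counts were 2 in Hira-null day 15, 2 in WT day 15, 0 in Hira-null day 0 and 0 in WT day 0 cells, with 2 HIRA-dependent peaks at day 15 and 0 at day 0, so the excess of WT over Hira-null day 15 window peaks was not seen there. With a score of at least 100 the counts were 1 in Hira-null day 15, 4 in WT day 15 and 0 in WT day 0 cells, with 4 HIRA-dependent peaks at day 15 and 0 at day 0. In gene bodies alone there were 2 in Hira-null day 15, 1 in WT day 15 and 2 in WT day 0 cells, with 1 HIRA-dependent peak at day 15 and 2 at day 0. Without the genes on chromosome 11, an alternative chosen after seeing the data, WT day 15 had 2 and WT day 0 had 2, all HIRA-dependent. A window of 20 kb upstream, merging, an overlap of 50% and Hira-null peaks widened by 1 kb moved no count past 1.5 times. Flank counts moved to 2 at a score of at least 100 in Hira-null day 15 cells, and to 2 in lists of equal length and 31 in flanks of 200 kb in WT day 15 cells, against 14 in each. No paired analysis was possible because each group has 1 ChIP library and no result comes from a test. The unknown read depth limits every comparison of list lengths and scores, and a missing peak is not a measure of absent H3.3.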
